A study of Mus musculus with 8 samples.

Results

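The globin and erythroid lineage genes Hbb-b1, Hbb-b2, Hba-a1, Gata1, Gfi1b, Klf1, Epor, Car1, Car2 and Tfrc were examined in sorted bone marrow cells of normal and chronic myelogenous leukaemia (CML)-affected mice. They are 10 of the 20207 genes in the deposited tables, were chosen by symbol, with their RPKM in these libraries already known. RNA sequencing gave 8 libraries. From normal bone marrow came 2 libraries of long-term haematopoietic stem cells (LT-HSCs), labelled 2 months (replicate 1) and 6 months (replicate 2), and 1 library each of short-term HSCs (ST-HSCs) and of KLS- progenitors, both labelled 2 months. CML-affected mice gave 2 libraries of LT-CML stem cells and 1 each of ST-CML and CML-KLS- cells, with no age in the labels. LT cells were sorted as CD150+CD48-CD135- and ST cells as CD150-CD48-CD135- within the KLS+ gate (cKit+Lineage-Sca-1+), and KLS- cells as cKit+Lineage-Sca-1-. The lineage antigens gated out included TER119, of erythroid cells, and Gr-1 and Mac1, of granulocytes and monocytes. CML was driven by Tal1-tTA, a transactivator active in stem and progenitor cells, through a TRE-BCR-ABL1 transgene switched on by withdrawal of doxycycline, and control littermates carried Tal1-tTA alone. The labels name the C57BL/6 strain for all 8 libraries and the study's methods describe this model on FVB/N, so effects of strain and of age cannot be told apart from that of CML.

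Red cells arise from KLS- progenitors that switch on GATA1 and KLF1, transcription factors that activate globin, haem and membrane genes. Erythropoietin, acting through its receptor, keeps these progenitors alive, and the transferrin receptor brings in the iron that haem needs. Adult mouse haemoglobin pairs alpha chains (Hba-a1, Hba-a2) with beta chains (Hbb-b1, Hbb-b2). GATA1 and GFI1B also serve the megakaryocyte lineage, which shares a progenitor with red cells.

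The beta-globin genes lie side by side on the minus strand of chromosome 7 (mm9), Hbb-b1 at chr7:110975048-110976610 and Hbb-b2 at chr7:110961038-110962510. Their coding sequences of 444 bases differ at 1 position, and so do those of Hba-a1 and Hba-a2, of 429 bases each, on the plus strand of chromosome 11. The 50 bases around each difference are shown because they bear on how well the copies can be separated, with the differing base in capitals.
Hbb-b1, chr7:110975182-110975231, minus strand: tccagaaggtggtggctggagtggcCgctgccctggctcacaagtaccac
Hbb-b2, chr7:110961173-110961222, minus strand: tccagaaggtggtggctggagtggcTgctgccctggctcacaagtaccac
Hba-a1, chr11:32184318-32184367, plus strand: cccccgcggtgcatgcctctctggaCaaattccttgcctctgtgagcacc
Hba-a2, chr11:32197135-32197184, plus strand: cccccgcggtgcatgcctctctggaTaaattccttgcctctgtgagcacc
Counted from 1 at the A of the start codon, with the first-named gene's base first, the differences are C417T for Hbb-b1 and Hbb-b2 and C381T for Hba-a1 and Hba-a2. Of the 100-base windows of the Hbb-b1 transcript, 331 of 679 (48.7%) occurred unchanged in Hbb-b2, and within the coding sequence 317 of 345 did. How the authors treated reads that match both copies is not given in the sources used here, so the split between Hbb-b1 and Hbb-b2 is uncertain.

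Values are RPKM (reads scaled by transcript length and sequencing depth), as deposited. From the steps of low values the libraries held an estimated 17.8 to 23.9 M reads. Of the sort markers, RNA for Sca-1 and CD150 followed the gates. Ly6a, which encodes Sca-1, was at 72.4 to 152 RPKM in the 6 LT and ST libraries and at 8.16 and 11.7 RPKM in the KLS- libraries, and Slamf1, which encodes CD150, was at 10.7 to 35.5 RPKM in LT libraries and at 1.11 and 2.87 RPKM in ST libraries. RNA of other sort markers differed between populations with the same gate. Kit, which encodes cKit, was at 78.4 and 88.2 RPKM in KLS- and at 119 to 213 RPKM in stem cell libraries, all gated cKit+. Cd48 and Flt3, which encodes CD135, were called lower in LT than in ST cells, although both populations were sorted as CD48-CD135-. LT-HSC replicate 2 stood apart in granule genes of mature neutrophils: S100a8 was at 1802 RPKM there, at 214 RPKM in LT-HSC replicate 1 and at 8.55 RPKM in ST-HSCs.

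Of the 9 members with any signal, Gata1, Klf1, Epor, Car1 and Tfrc were highest in the CML-KLS- library. The share of all genes that were highest there was not computed. Klf1, Car1 and Tfrc were 8.07-, 43.1- and 5.02-fold higher in the mean of the 2 KLS- libraries than in that of the 6 stem cell libraries. The beta-globins did not follow: they were highest in normal LT-HSCs and near 0 in LT-CML cells. Gata1 and Epor formed another pattern, high in LT and KLS- cells and low in ST cells.

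**Figure D1:**
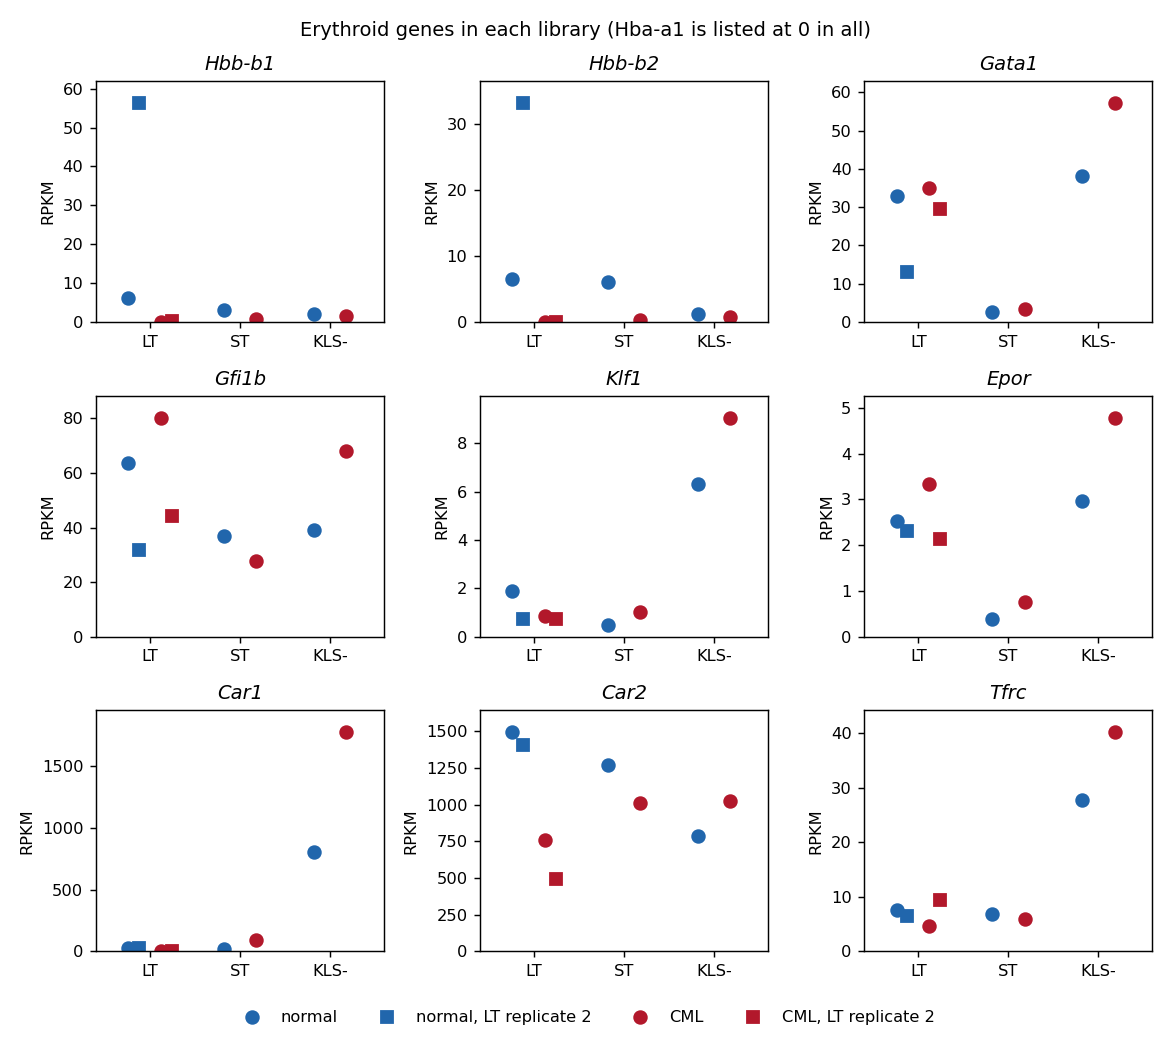
RPKM (y axis, linear, from 0) of 9 genes in each of the 8 libraries, by population (x axis), with normal libraries in blue and CML libraries in red; squares are the second LT replicates. Klf1, Car1 and Tfrc are highest in both KLS- libraries, Gata1 and Epor are lowest in both ST libraries, and the beta-globins are highest in LT-HSC replicate 2 (56.3 RPKM for Hbb-b1).

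The first comparison asked how the genes differ between KLS- progenitors and the stem cells above them (2 against 6 libraries, limma on log2(RPKM + 1) with the disease state as a covariate). Klf1, whose product activates adult beta-globin transcription, was at 1.90, 0.737 and 0.486 RPKM in LT-HSC replicates 1 and 2 and ST-HSCs, at 0.850, 0.752 and 1.01 RPKM in LT-CML replicates 1 and 2 and ST-CML cells, and at 6.34 and 9.07 RPKM in normal and CML-KLS- cells. Both KLS- libraries lay above all 6 stem cell libraries. The log2 fold change was 2.17 (SE 0.25, adjusted p = 0.000443), and Klf1 rested on an estimated 14 to 58 reads in each stem cell library. Tfrc, the transferrin receptor, was at 7.55, 6.38 and 6.76 RPKM in the normal stem cell libraries in the same order, at 4.64, 9.36 and 5.84 RPKM in the CML ones, and at 27.7 and 40.1 RPKM in KLS- cells. The groups again did not overlap, with a log2 fold change of 2.17 (SE 0.24, adjusted p = 0.000376).

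Car1, the carbonic anhydrase used as an early erythroid marker, had the widest range. It was at 30.6, 26.7 and 21.6 RPKM in normal LT-HSC replicates 1 and 2 and ST-HSCs, at 2.71, 6.11 and 91.7 RPKM in LT-CML replicates 1 and 2 and ST-CML cells, and at 804.5 and 1775 RPKM in normal and CML-KLS- cells. Each KLS- library was above every stem cell library, and the log2 fold change was 5.97 (SE 1.04, adjusted p = 0.00273). Without the CML-KLS- library it was 4.9 and the adjusted p was 0.0642. Car2, the high-activity carbonic anhydrase of red cells and other cell types, was abundant everywhere (494 to 1494 RPKM) and did not pass the test (log2 fold change -0.16, SE 0.32, adjusted p = 0.71).

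Gata1 was at 38.1 and 57.2 RPKM in KLS- cells, the 2 highest of the 8 values, but its level in LT cells reached 34.9 RPKM and the test was not passed (log2 fold change 1.75, SE 0.93, adjusted p = 0.156). Epor (2.97 and 4.79 RPKM in KLS- cells, 0.378 to 3.33 RPKM in stem cells) and Gfi1b (39.2 and 68.1 against 27.9 to 80.3 RPKM) overlapped between the populations and did not pass (adjusted p = 0.134 and 0.663). Gfi1b encodes a transcriptional repressor that works in the erythroid and megakaryocyte lineages. Hbb-b1 and Hbb-b2 had log2 fold changes of -0.47 (SE 0.94) and -0.85 (SE 0.74), both within the spread between libraries (adjusted p = 0.709 and 0.38). In all, 3 of the 9 members tested were higher and 0 lower, where 19.0% of the 12561 genes tested were higher and 22.7% lower. The members were chosen with their RPKM known, so these calls describe the values and are not independent evidence.

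Other genes of the red cell programme came from lists that exclude the members, and their direction differed between lists. Of 131 such genes tested, 41 (31.3%) were higher in KLS- cells, beside 19.0% of all genes. Lower were 29 (22.1%), near the 22.7% of all genes. Fewer were called without either KLS- library. Among genes of haem synthesis and transport, 13 of 21 were higher and 0 lower (median log2 fold change 0.72, against -0.08 over all genes tested). Alas1, which catalyses the first step of haem synthesis, was at 12.4 to 50.7 RPKM in stem cells and at 255 and 339 RPKM in KLS- cells (log2 fold change 3.67, SE 0.37, adjusted p = 0.000262). Cpox (1.18, SE 0.16) and Alad (1.11, SE 0.18), enzymes of later steps, and Tmem14c (1.54, SE 0.18), which carries porphyrin into the mitochondrial matrix, also rose. Alas2, the erythroid form of the first enzyme, did not pass the test (adjusted p = 0.755), at 0.357 and 1.96 RPKM in normal and CML-KLS- cells and at 16.1 RPKM in LT-HSC replicate 2.

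Genes of the red cell membrane were higher for 10 of 21 (47.6%) and lower for 2 (9.52%), with a median of 0.36. Over all genes 19.0% were higher and 22.7% lower. Ermap, an erythroid surface protein, was at 0.117 to 2.75 RPKM in stem cells and at 30.7 and 53.3 RPKM in KLS- cells (log2 fold change 4.37, SE 0.46, adjusted p = 0.000305). Rhd and Rhag, of the Rhesus complex, rose by 4.36 (SE 0.62) and 2.80 (SE 0.40) on the log2 scale, and Add2, an adducin of the membrane skeleton, by 3.27 (SE 0.36). Slc4a1, the band 3 anion exchanger of mature red cells, was at 0.0326 and 0.0863 RPKM in KLS- cells and did not pass (adjusted p = 0.559). Slc4a1, Alas2 and the globins, which come on late in red cell formation, were thus at low levels in KLS- cells in which Ermap and Rhd were at 30.7 to 71.9 RPKM.

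Of the iron genes, 8 of 21 (38.1%) were higher and 2 (9.52%) lower (median 0.29), beside 19.0% and 22.7% of all genes. Steap3, the endosomal ferrireductase, rose by 2.66 (SE 0.25) and Slc11a2, which moves iron out of the endosome, by 1.51 (SE 0.19) on the log2 scale, alongside Tfrc. Slc40a1, the iron exporter ferroportin, rose by 2.51 (SE 0.41). The ferritin subunits Fth1 (678 to 1051 RPKM over the 8 libraries) and Ftl1 (445 to 759 RPKM) did not pass the test. Among genes of late erythroblasts, 8 of 22 (36.4%) were higher, such as Cldn13 (log2 fold change 4.27, SE 0.75) and Sphk1 (2.68, SE 0.16). The 4 lower (18.2%, under the share of all genes) included Ube2l6 (-1.53, SE 0.15). Of 9 other carbonic anhydrases tested 0 were higher and 1 (11.1%), Car5b, lower (-0.62, SE 0.12). None of the 5 other globin genes in the tables passed the filter on low values.

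Transcription factors around GATA1 went mostly the other way, with 3 of 23 (13.0%) higher and 11 (47.8%) lower (median -0.51). Over all genes these shares were 19.0% and 22.7%. Lower in KLS- cells were Gata2 (log2 fold change -2.06, SE 0.44), Lmo2 (-1.89, SE 0.32), Mllt3 (-2.26, SE 0.33) and Sox6 (-1.86, SE 0.27), and Tal1 and Nfe2 (-1.05, SE 0.18) were among the others. Gata2, Lmo2 and Mllt3 also serve stem cells, and markers of stem cells were lower in KLS- cells for 11 of 16. Erythropoietin pathway genes were lower for 10 of 16 (62.5%) and higher for 0 (median -0.76). Cish was at 8.25 to 28.9 RPKM in stem cells and at 0.640 and 1.84 RPKM in KLS- cells (log2 fold change -2.96, SE 0.20, adjusted p = 5.14e-05), followed by Socs2 (-2.36, SE 0.37) and Socs3 (-1.98, SE 0.30). These 3 genes are cytokine-induced feedback inhibitors of JAK-STAT signalling, which other cytokine receptors also use.

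**Figure D2:**
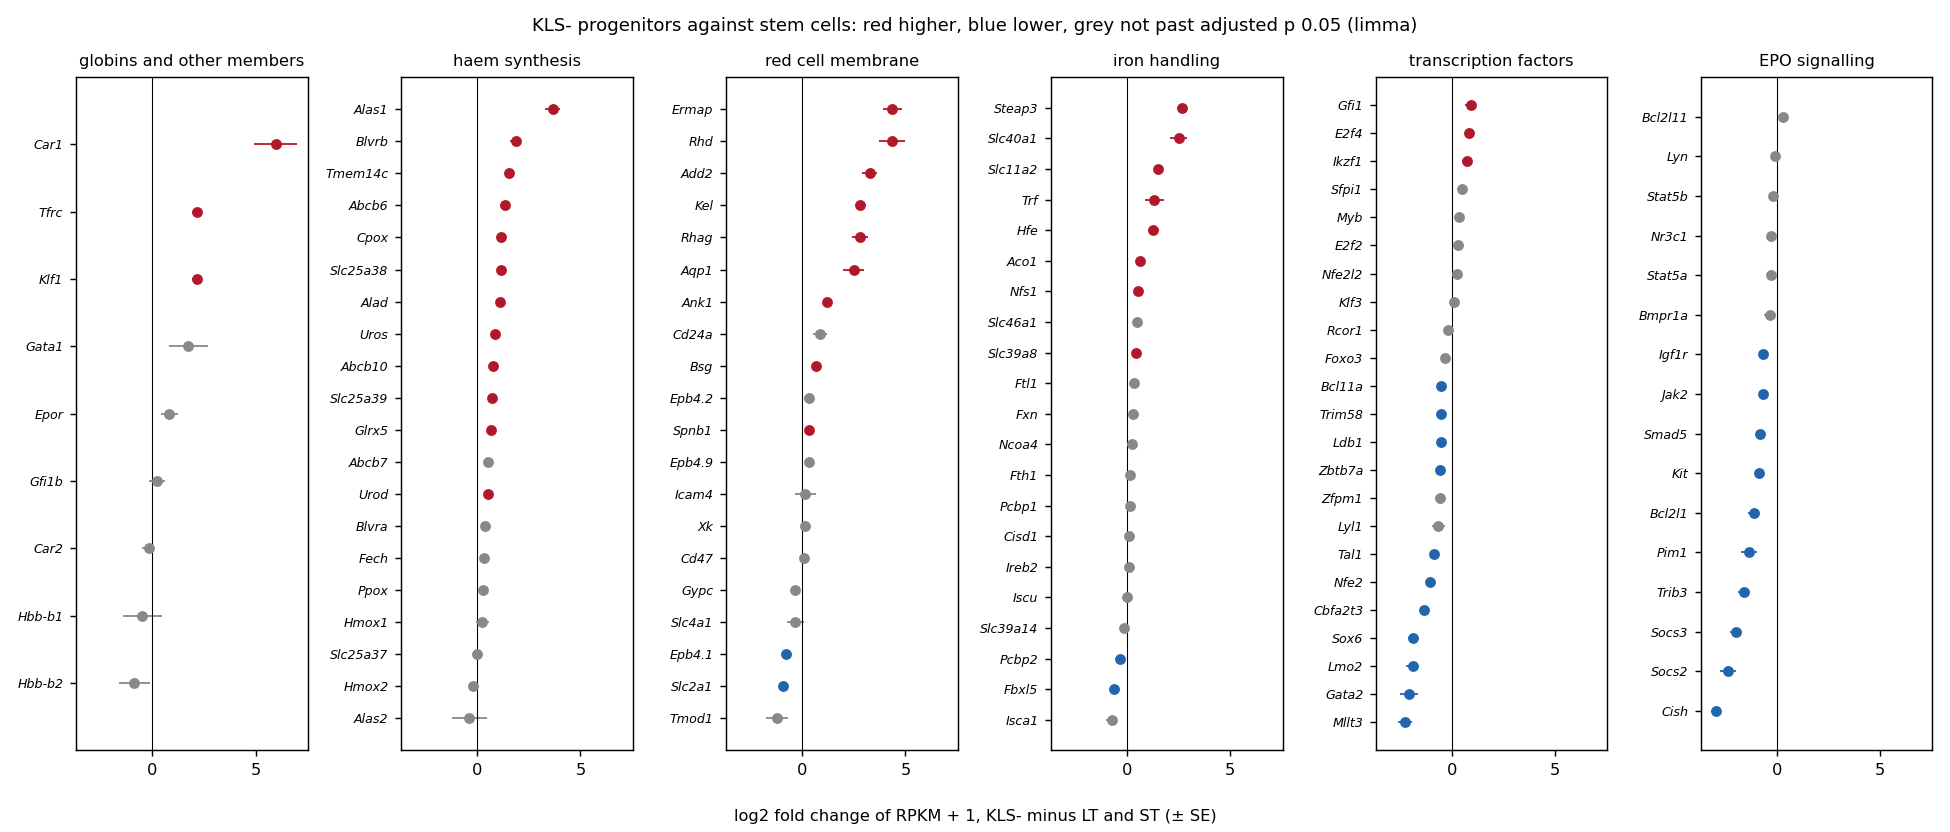
Log2 fold change with its standard error (x axis) between KLS- and stem cells for the genes (y axis) of the members and of 5 erythroid lists, a few genes of which are not plotted, with genes past the adjusted p in red where higher and in blue where lower. Haem synthesis and membrane genes lie mostly to the right of 0 (13 and 10 of 21 called higher) and transcription factors and erythropoietin pathway genes to the left (11 of 23 and 10 of 16 called lower).

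KLS- cells also hold granulocyte and monocyte progenitors, and those markers were higher in them too, for 10 of 19 genes, beside 19.0% of all genes. The summed level of that list was 14900.5 and 23499 RPKM in KLS- libraries and 508 to 4626 RPKM in stem cell libraries, with Mpo at 7891 and 13120 RPKM in KLS- cells and Cebpe at 0 in ST-HSCs. Markers of mast cells and basophils, which also use GATA factors, were higher for 7 of 10 and summed to 1206 and 1307 RPKM against 625 to 932 RPKM. In bulk libraries, fewer cells of a type and less RNA per cell cannot be told apart. The part of these cells in the differences above was not tested.

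The second comparison set LT against ST cells (4 against 2 libraries, limma with the disease state as a covariate). Gata1 was at 32.8 and 13.0 RPKM in LT-HSC replicates 1 and 2 and at 34.9 and 29.6 RPKM in LT-CML replicates 1 and 2, but at 2.53 and 3.36 RPKM in ST-HSCs and ST-CML cells. All 4 LT libraries lay above both ST libraries, 9.37-fold in the means, with a log2 fold change of 2.77 (SE 0.31, adjusted p = 0.0064). Epor was at 2.52, 2.31, 3.33 and 2.13 RPKM in the LT libraries in that order and at 0.378 and 0.763 RPKM in the ST libraries, 4.51-fold lower in the means (log2 fold change 1.19, SE 0.17, adjusted p = 0.011). Without the ST-HSC library the adjusted p was 0.0556 for Gata1 and 0.171 for Epor, and without the ST-CML library 0.0719 and 0.103.

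Klf1 (log2 fold change 0.22, SE 0.24) and Tfrc (0.10, SE 0.24) did not pass this test (adjusted p = 0.684 and 0.87). Gfi1b did not pass either (0.67, SE 0.34, adjusted p = 0.345). Car1 ran from 2.71 RPKM in LT to 91.7 RPKM in ST cells and its log2 fold change of -1.89 (SE 0.84) did not pass (adjusted p = 0.282), while without the ST-HSC library it was -4.18 (adjusted p = 0.00872). In all, 2 of 9 members were higher in LT cells and 0 lower, where 2.28% of all genes tested were higher and 1.81% lower. Here too the members were chosen with their RPKM known, so their calls are not independent evidence.

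Of the 131 other erythroid genes, 7 (5.34%) were higher in LT cells and 2 (1.53%) lower, beside 2.28% and 1.81% of all genes. These calls were not stable: with no filter on low values 0 and 0 passed, and leaving out 1 library gave 0 to 9 and 0 to 2. Those higher included Gata2 (log2 fold change 1.17, SE 0.18), Zfpm1 (0.74, SE 0.14), which encodes the GATA1 cofactor FOG1, Tmod1 (1.51, SE 0.26), Icam4 (1.42, SE 0.23), Aqp1 (1.14, SE 0.25) and Hemgn (0.76, SE 0.14). Ikzf1 (-0.67, SE 0.13) and Trf, transferrin (-1.32, SE 0.19), were lower. Megakaryocyte markers moved with Gata1: 12 of 15 were higher in LT cells and 0 lower. The summed level of all 16 was 487 to 746 RPKM in LT libraries and 204 and 222 RPKM in ST libraries, and Pf4, platelet factor 4, ran from 202 to 356 RPKM in LT and stood at 16.1 and 16.4 RPKM in ST cells, where Gp1bb was listed at 0. The part of these genes in the level of Gata1 and Epor was not tested.

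The third comparison, CML stem cells against normal HSCs (3 LT and ST libraries each), is the one in which these genes were noticed, so the members' values are given as a description with no test. Hbb-b1 was at 6.25, 56.3 and 3.23 RPKM in LT-HSC replicates 1 and 2 and ST-HSCs, and at 0, 0.263 and 0.857 RPKM in LT-CML replicates 1 and 2 and ST-CML cells. These are an estimated 78, 842 and 38 reads against 0, 3 and 10. Hbb-b2 was at 6.57, 33.2 and 6.01 RPKM against 0.0792, 0 and 0.264 RPKM, or 80, 483 and 69 reads against 1, 0 and 3. Every CML stem cell library was below every normal one for both genes.

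The means were 21.9 ± 29.8 RPKM (SD, n = 3) against 0.373 ± 0.439 for Hbb-b1, a 58.7-fold difference, and 15.3 ± 15.5 against 0.114 ± 0.135 RPKM for Hbb-b2, a 133-fold difference. LT-HSC replicate 2 carried most of the normal mean. Without it the ratios were 12.7 and 55.1, with 95% intervals for the counting error of the CML reads alone (exact Poisson) of 7.42 to 23.8 and 21.5 to 202. They leave out the spread between libraries, and amplified reads do not count separate molecules. The intervals are no test of a difference, since the genes were noticed in these values. In KLS- cells the pair stood at 2.21 and 1.29 RPKM in normal and at 1.61 and 0.827 RPKM in CML libraries, between the stem cell groups. Hba-a1 and Hba-a2 were listed at 0 in all 8 libraries, LT-HSC replicate 2 included. Of their 100-base windows 56.5% and 74.5% occur in the other copy, and since the treatment of such reads is not known, a listed 0 does not show that alpha-globin RNA was absent.

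Of the members tested, 3 of 9 (Hbb-b1, Hbb-b2 and Car2) had every CML stem cell library below every normal one and 0 of 9 the reverse, where 11.4% and 6.92% of all genes did. Since the members were noticed in this comparison, their share is a description only. Car2 was at 1494, 1405 and 1270 RPKM in LT-HSC replicates 1 and 2 and ST-HSCs and at 756, 494 and 1011 RPKM in the CML libraries in the same order (1390 ± 113 against 753 ± 259 RPKM, SD, n = 3). Car1 was lower in the LT pair, at 4.41 ± 2.41 RPKM in CML against 28.6 ± 2.72 RPKM in normal cells (SD, n = 2), a 6.5-fold difference. Gata1 was at 16.1 ± 15.4 RPKM in normal and 22.6 ± 16.9 RPKM in CML stem cells (SD, n = 3), and Gfi1b at 44.1 ± 17.2 and 50.8 ± 26.8. In the same order Klf1 was at 1.04 ± 0.75 and 0.872 ± 0.132, Epor at 1.74 ± 1.18 and 2.07 ± 1.28, and Tfrc at 6.90 ± 0.60 and 6.61 ± 2.45. The means of each gene differed by less than its larger SD. These SDs pool LT and ST cells, between which Gata1 and Epor differed. In LT cells Gata1 was at 22.9 ± 14.0 RPKM normal and 32.3 ± 3.78 CML, and Epor at 2.42 ± 0.15 and 2.73 ± 0.85 (SD, n = 2). In ST cells, with 1 library each, Gata1 was at 2.53 and 3.36 RPKM and Epor at 0.378 and 0.763.

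Few of the other erythroid genes were called between CML and normal stem cells: 4 of 131 were higher and 0 lower, beside 1.18% and 1.16% of all genes tested. Ctse, cathepsin E, was at 8.58, 10.6 and 16.8 RPKM in LT-HSC replicates 1 and 2 and ST-HSCs and at 99.6, 83.1 and 123 RPKM in the CML libraries (log2 fold change 3.02, SE 0.25, adjusted p = 0.0013). Cish (1.11, SE 0.20, adjusted p = 0.0366), Alad (1.01, SE 0.16, adjusted p = 0.0211), the second enzyme of haem synthesis, and Hebp1 (1.0, SE 0.16, adjusted p = 0.0197), which binds haem, were about 2-fold higher. Ctse kept the call without each of the 6 libraries in turn. Cish lost it without each (adjusted p of 0.0526 to 0.143), Alad without each but LT-CML replicate 2 (0.0578 to 0.0914) and Hebp1 without each but LT-HSC replicate 2 (0.0527 to 0.1).

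LT-HSC replicate 2, the globins' highest library, was also the highest for 17.4% of all genes tested. It was so for 2 of 21 haem genes and 2 of 21 membrane genes (9.52% each), and for 3 of 21 iron genes (14.3%). The share was larger for transcription factors (10 of 23, 43.5%) and erythropoietin pathway genes (6 of 16, 37.5%). For late erythroid genes it was 22.7% (5 of 22) and for other carbonic anhydrases 22.2% (2 of 9). Alas2 and Slc4a1, neither of them called between CML and normal stem cells (limma, adjusted p = 0.563 and 0.625), were among those 4 haem and membrane genes. Alas2 was at 2.13, 16.1 and 0.323 RPKM in LT-HSC replicates 1 and 2 and ST-HSCs and at 0.317, 0.625 and 0.922 RPKM in the CML libraries. Slc4a1 was at 0.231, 2.59 and 0 RPKM in the normal and at 0, 0.0483 and 0.130 RPKM in the CML libraries. Camp (433 RPKM there, 0.267 to 86.2 RPKM elsewhere) and Ngp (688 RPKM, 0.458 to 117 RPKM elsewhere), which encode neutrophil granule proteins, were highest there too. The summed level of the 19 granulocyte and monocyte markers was 4626 RPKM in that library and 4362 RPKM in LT-CML replicate 2, but different genes made up these sums. Mpo and Ela2, of granule-forming progenitors, were at 69.9 and 125 RPKM in LT-HSC replicate 2 and at 1291 and 1120 RPKM in LT-CML replicate 2, and Ltf, of mature neutrophils, was at 76.7 and 12.6 RPKM. LT-HSC replicate 2 was also the only library labelled 6 months, and the part of age or of mature cells in its globin level was not tested.

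**Figure D3:**
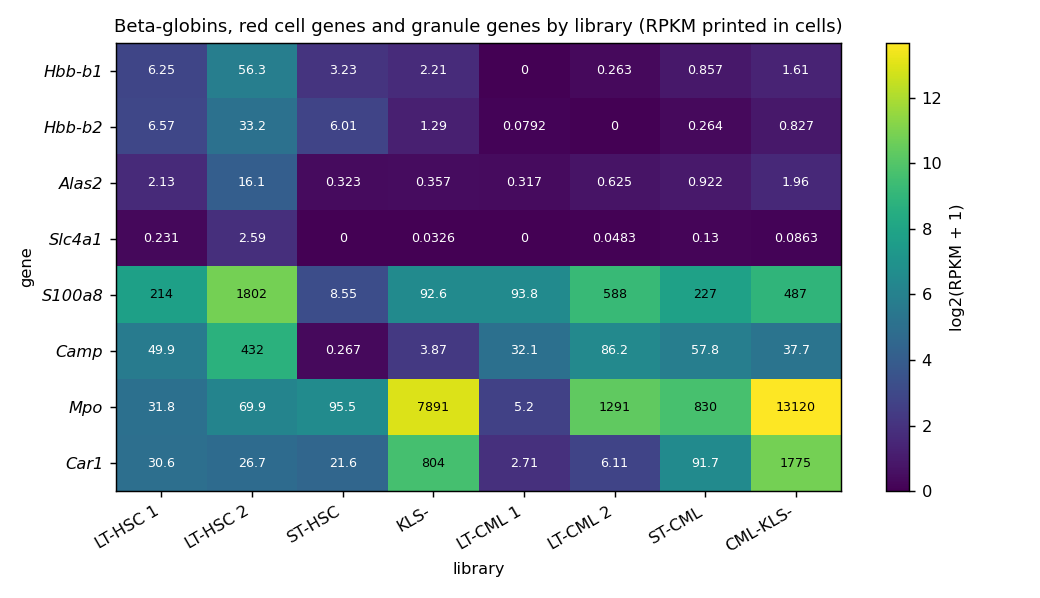
RPKM printed for 8 genes (rows) in the 8 libraries (columns), coloured by log2(RPKM + 1). Hbb-b1, Hbb-b2, Alas2 and Slc4a1 peak in LT-HSC replicate 2 together with S100a8 (1802 RPKM) and Camp, whereas Mpo and Car1 peak in the CML-KLS- library.

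The genes whose levels followed Hbb-b1 most closely over the 8 libraries, by Pearson's r of log2(RPKM + 1) among 10033 genes with a mean of at least 1 RPKM, were Hbb-b2 (0.965), Tnfaip6 (0.961), Pacs2 (0.930), H2-Eb1 (0.926) and Rab6 (0.925). H2-Eb1, a class II antigen-presenting gene, was at 7.60, 32.3 and 5.32 RPKM in LT-HSC replicates 1 and 2 and ST-HSCs and at 0.296 to 0.772 RPKM in the CML stem cell libraries. Hbb-b1 did not track Klf1 (r = -0.10). The genes closest to Klf1 were 1190007F08Rik (0.995), Slc45a3 (0.985), Ndufs7 (0.984), Ttll12 (0.982) and Guk1 (0.982), and among the members Tfrc (0.943) and Car1 (0.894). Gata1 lay closest to Epor (0.957). These correlations describe 8 libraries from 6 populations, and the labels do not say which of them share mice.

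The 250 bases before the start of 8 of the 10 members were matched in RefSeq (GRCm38.p6), which names the Hbb-b1 and Hbb-b2 genes Hbb-bs and Hbb-bt. GATA motifs (AGATAA or AGATAG, and the same with a leading T, on either strand) occurred in 5 of the 8, against 26.5% of 32851 promoters of that length. The long CACCC motif bound by KLF1 (CCACACCC or CCACGCCC, either strand) occurred in 1 of 8 (7.72% of all). Other forms, such as CCCCACCC in the Epor window below and CCTCACCC in that of Hbb-b2, were not counted. A TATA motif (TATAAA or TATAAG, plus strand only) occurred in 4 of 8 (11.2%). The last 130 bases are shown for the beta-globins, which moved together, and for Klf1, Gfi1b and Epor, with motifs in capitals.
Hbb-b1, chr7:103827929-103828058, minus strand: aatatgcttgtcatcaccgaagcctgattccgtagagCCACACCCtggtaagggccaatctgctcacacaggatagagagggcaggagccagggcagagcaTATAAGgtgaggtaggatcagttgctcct
Hbb-b2, chr7:103813924-103814053, minus strand: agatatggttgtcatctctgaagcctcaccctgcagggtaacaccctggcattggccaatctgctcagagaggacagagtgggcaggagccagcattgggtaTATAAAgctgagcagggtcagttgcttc
Klf1, chr8:84901852-84901981, plus strand: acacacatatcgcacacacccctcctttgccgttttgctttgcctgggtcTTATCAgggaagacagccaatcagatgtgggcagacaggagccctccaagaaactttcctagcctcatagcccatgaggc
Gfi1b, chr2:28621983-28622112, minus strand: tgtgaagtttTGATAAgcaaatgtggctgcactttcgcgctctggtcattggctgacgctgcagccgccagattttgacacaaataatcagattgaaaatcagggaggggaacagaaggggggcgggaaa
Epor, chr9:21963577-21963706, minus strand: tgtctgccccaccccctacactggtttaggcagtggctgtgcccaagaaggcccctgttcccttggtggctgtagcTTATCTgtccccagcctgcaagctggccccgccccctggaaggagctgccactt
Within these windows the Hbb-b1 promoter holds the long CACCC motif as defined above and the Hbb-b2 promoter does not. The part of this motif in the levels of the copies, whose split is uncertain, was not tested. A match is a description of the letters and not of a bound site.

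The last comparison set CML-KLS- against normal KLS- cells (1 library each, so no test). Of the 9 members, 7 were higher in the CML library: Car1 2.21-fold (804.5 to 1775 RPKM), Gfi1b 1.74-fold (39.2 to 68.1), Epor 1.61-fold (2.97 to 4.79), Gata1 1.5-fold (38.1 to 57.2), Tfrc 1.45-fold (27.7 to 40.1), Klf1 1.43-fold (6.34 to 9.07) and Car2 1.31-fold (785 to 1025). The beta-globins were lower, at 0.731 and 0.64 times the normal level. The members' median log2 difference was 0.52, beside -0.01 over all genes tested, of which 47.1% were higher in the CML library. Car1 alone passed 2-fold on the log2(RPKM + 1) scale (1 of 9 higher, 0 lower), as did 1.85% of all genes upward and 1.39% downward.

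The same lean showed over the union of the other erythroid lists, where 90 of 131 genes were higher in CML-KLS- cells, but it differed between lists. Higher were 18 of 21 genes for haem synthesis, 17 of 21 for the membrane, 18 of 22 late erythroid genes and 14 of 21 iron genes. Erythropoietin pathway genes (9 of 16, 56.2%), transcription factors (12 of 23, 52.2%) and other carbonic anhydrases (4 of 9, 44.4%) lay nearer the 47.1% of all genes. By at least 2-fold 11 of the 131 genes were higher, among them Rhag (20.4 to 77.6 RPKM), Rhd (34.1 to 71.9), Add2 (6.81 to 20.5), Cldn13 (21.9 to 71.1), Alad (63.9 to 198) and Hebp1 (6.47 to 90.2), and 1 was lower (Car3). Mpo, of granulocyte and monocyte progenitors, was higher in the same library as well (7891 to 13120 RPKM). The difference of the CML effect between KLS- and stem cells was tested over all genes, and 0.0717% passed. Hebp1 was the 1 erythroid gene among them, with a difference of 2.61 on the log2 scale (SE 0.31, adjusted p = 0.0401). That p takes each single KLS- library to vary like the stem cell libraries, and after quantile normalization 0 erythroid genes passed.

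Car1 went opposite ways in the stem cell populations, as the plot of LT against ST differences shows. Both LT-CML libraries lay below both LT-HSC libraries (log2 difference -2.53), and Car1 was higher in ST-CML than in ST-HSC cells (2.04) and higher in CML-KLS- than in normal KLS- cells (1.14). This order, noticed after the values were seen, held for 17 of the 131 other erythroid genes and for 2.01% of all genes tested, and 8 of the 17 were membrane genes. Rhd was at 1.13 and 2.91 RPKM in LT-HSC replicates 1 and 2, 0.160 and 0.472 in LT-CML replicates 1 and 2, 1.30 in ST-HSCs and 5.78 in ST-CML cells. Cldn13 was at 0.376 and 2.63 RPKM in LT-HSC, 0 and 0.155 in LT-CML, 1.1 in ST-HSC and 6.24 in ST-CML libraries. Ermap was at 1.27 and 1.77 RPKM in LT-HSC, 0.117 and 0.217 in LT-CML, 1.09 in ST-HSC and 2.75 in ST-CML libraries. The beta-globins were lower in ST-CML than in ST-HSC cells. Granulocyte and monocyte markers were high in ST-CML cells (a sum of 2597 RPKM against 508 in ST-HSCs), and their part in these values was not tested.

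**Figure D4:**
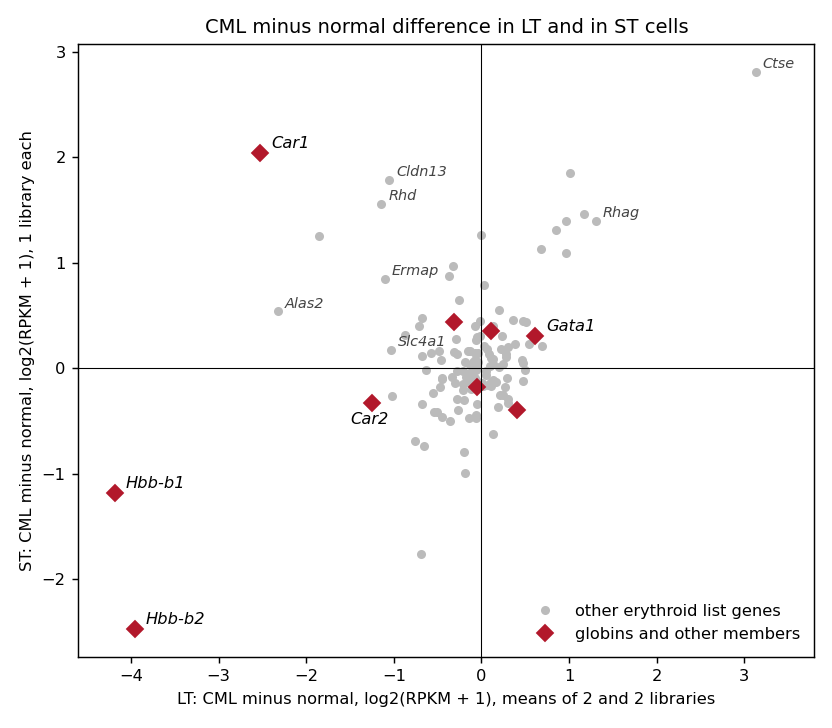
CML minus normal difference in log2(RPKM + 1) in LT cells (x axis, means of 2 and 2 libraries) and in ST cells (y axis, 1 library each), with red diamonds for 9 members and grey points for the 131 other erythroid genes. Car1 lies at -2.53 and 2.04 in the upper left with Rhd, Cldn13, Ermap and Alas2, the beta-globins lie in the lower left, and Ctse in the upper right.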

How the data were processed

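RNA of LT, ST and KLS- cells was sequenced in 8 libraries. Per the labels and the study's methods, the authors made libraries with the SMARTer Ultra Low Input kit (oligo-dT priming), sequenced paired reads of 100 bases, mapped them to mm9 with a commercial service and deposited RPKM per gene. The annotation, the counting rule and the treatment of reads with several matches are not given in the sources used here.

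Values were transformed to log2(RPKM + 1), and 12561 of 20207 genes with a total above 1 RPKM were tested with limma 3.58.1 (R 4.3.3, linear fits moderated with a trend in mean level), with Benjamini-Hochberg adjustment over all of them and a threshold of 0.05. Of the 10 members 9 passed this filter (Hba-a1 did not). KLS- cells were compared with stem cells over 8 libraries and LT with ST cells over 6, both with disease as a covariate, and CML with normal stem cells over 6 with none. A single KLS- library in each mouse group was taken to vary like the stem cell libraries. The labels do not say which libraries came from separate mice, so p-values measure the spread between these libraries, which may be technical. The models of these 3 comparisons were tested on simulated data.

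Reads were estimated from whole-read steps of low RPKM values. Of 4197 low genes examined, 58.1% lay on whole steps within 3%, too few for a count test. Scale and coordinates came from GENCODE M1 on the same build, and reads of both Hbb genes from their own steps. Promoters are RefSeq's. Python 3.11, pandas 2.3.3, scipy 1.17.1 and matplotlib 3.10.9 were used otherwise.

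Members and gene lists were chosen with earlier results of these data known, and the CML against normal values of the members carry no p. Other p-values of members and lists describe the spread between libraries and are not independent evidence. Named were all members, genes of each erythroid list past the threshold in a comparison (at most 8 for each list and comparison, by fold change), the 3 with the highest mean RPKM in each list, and the 5 genes most correlated with Klf1 and with Hbb-b1. Other genes named, as library checks or for their levels, were chosen after their values were seen. Alternatives covered the pseudocount, the filter, normalization, the covariate, the eBayes trend and leaving out each library. Values of a few single genes of the lists are not reported here, though the genes stay in the counts.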

Additional observations from a re-analysis of the deposited data

Results flagged for a closer look

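Car1 differed between CML and normal cells in opposite directions. On the log2(RPKM + 1) scale it was lower in LT-CML cells (-2.527) and higher in ST-CML (2.038) and CML-KLS- cells (1.141). Both LT-CML libraries lay below both LT-HSC libraries, ST and KLS- cells had 1 library in each group, and no p is given for the difference between populations, since Car1 was chosen with these values known.

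Car2 was lower in CML stem cells (-0.9395, with each CML library below each normal one) and higher in CML-KLS- cells (0.3842, 1 library each). No p is given for this difference, since Car2 was chosen with these values known.

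The CML minus normal difference of Hebp1 was 2.609 greater on the log2 scale in the KLS- pair than in stem cells (SE 0.31, adjusted p = 0.0401, limma). This rests on 1 KLS- library of each group, whose spread was taken from the stem cell libraries, and after quantile normalization Hebp1 and the other erythroid genes did not pass.

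A further 17 erythroid genes were, like Car1, lower in both LT-CML libraries and higher in ST-CML and CML-KLS- cells, where 2.01% of all genes tested showed this order. The LT log2 differences included -2.322 for Alas2, -1.142 for Rhd, -1.103 for Ermap, -1.057 for Cldn13, -1.037 for Slc4a1 and -0.7134 for Aqp1. They were -0.4868 for Trim10, -0.4575 for Sphk1, -0.3758 for Add2, -0.3245 for Kel, -0.3185 for Gclm and -0.2781 for Zfpm1. For Zbtb7a (-0.1307), Car15 (-0.09713) and Ank1 (-0.03404) they were small. The difference between LT and ST cells was not tested. That between KLS- cells and the LT and ST cells together was, and none of the 17 passed (adjusted p = 0.675 for Ank1, limma, and higher for the others named).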

How the results depend on the processing

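No paired analysis was possible because the normal libraries carry ages and no replicate numbers in their labels. The globins rested on few reads in CML stem cells (13 reads of Hbb-b1 and 4 of Hbb-b2 in all), and each KLS- and ST group had 1 library.

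Between CML and normal stem cells, 4 erythroid genes were higher and 0 lower, and over all genes 148 and 146. With no filter these were 1 higher, and 92 and 81 over all genes. With LT or ST as a covariate they were 7 and 3, and 251 and 292, and with LT libraries only 1 and 1. Leaving out 1 library gave 1 to 2 higher and 0 to 1 lower, and 62 to 109 and 46 to 117 over all genes. The globins' log2 differences were -3.18 and -3.46 and, with a pseudocount of 0.1, -5.02 and -5.89.

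Between KLS- and stem cells, leaving out 1 library gave 18 to 43 erythroid genes higher (41 with all) and 9 to 31 lower (29), and over all genes 751 to 2384 (2381) and 999 to 2891 (2850). The lowest 4 counts came without the CML-KLS- library. Klf1 and Tfrc kept their calls in all 17 settings, Car1 in 16.

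Between LT and ST cells, 7 erythroid genes were higher and 2 lower, and over all genes 286 and 227. With no filter these were 0 and 0, and 1 and 14, and Gata1 and Epor lost their calls (adjusted p = 0.16 and 0.158). With no covariate they were 3 and 1, and 128 and 84. Leaving out 1 library gave 0 to 9 and 0 to 2, and 23 to 444 and 23 to 268, lowest without either ST library and highest without LT-HSC replicate 2. Car1 passed without the ST-HSC library only, and without the ST-CML library its log2 fold change was 0.39.

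The difference of the CML effect between KLS- and stem cells had 1 erythroid gene higher, and 0 after quantile normalization. Between the KLS- libraries, 11 erythroid genes were higher by 2-fold and 1 lower, and 19 and 2 with a pseudocount of 0.1. The causes of these changes were not tested. No called gene changed sign, and 24 member values that were not called, or carried no test, did so under an alternative.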
